A study of Mus musculus with 8 samples.

Results

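Collagen mRNAs were measured by RNA-seq in bulk liver of 4 wild-type (WT) mice and 4 liver-specific NgBR knockout (N-LKO) mice. A row of the count table was taken as a collagen gene where its symbol was Col, a number, the letter a and a number. This rule gave 33 of the 19642 genes in the table, and they were grouped as 9 fibrillar collagens, 6 basement membrane collagens, 5 type VI collagens, 4 FACITs (fibril-associated collagens with interrupted triple helices) and 9 other collagens. Another 11 of the 44 collagen genes in the class list were not analysed here, namely Col2a1, Col6a4, Col7a1, Col9a1, Col9a2, Col9a3, Col11a1, Col17a1, Col19a1, Col22a1 and Col26a1.

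Both groups were kept on chow diet (CD), for 8 weeks by the sample titles and 16 weeks by the treatment labels. The study's figure legends for mRNA levels in chow-fed WT and N-LKO livers give 8 weeks, as the titles do. Why the treatment labels differ is not given in the sources used here. N-LKO mice carry Nus1, the gene for NgBR, with its exon 1 between loxP sites, and a Cre recombinase driven by the albumin promoter, which is active in hepatocytes. All strains had a C57BL6 background, and the study describes its findings as based on male mice. Whether the WT mice carried loxP sites or Cre is not given in the sources used here. Each library came from 1 mouse, and the labels call the mice of a group biological replicates.

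Collagens are built from 3 chains wound into a triple helix, and each gene encodes 1 chain. Fibrillar collagens (types I, III and V in liver) form the fibers of the portal tracts and of scar, basement membrane collagen (type IV) forms sheets under epithelium and endothelium, and type VI forms beaded microfilaments that link cells to fibers. FACITs sit on the surface of fibrils, and the multiplexins Col15a1 and Col18a1 carry heparan sulfate or chondroitin sulfate chains, with Col18a1 being the precursor of endostatin. In liver, stellate cells and portal fibroblasts are the best known source of the fibrillar chains, while hepatocytes are a known source of Col18a1. In bulk tissue, more cells of a type and more RNA per cell cannot be told apart.

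Library totals ranged from 15430519 to 18412201 counts in WT and from 14688404 to 18585412 in N-LKO. Nus1, which checks the labels, had 81.97 to 90.54 CPM (counts of a gene relative to the TMM-scaled total of its library) in WT and a mean of 36.74 ± 2.57 (SD, n = 4) in N-LKO, against 88.15 ± 4.14 in WT. Its log2 fold change was −1.26 (SE 0.075, adjusted p = 3.062e-05 in edgeR's quasi-likelihood test), and the exact two-sided permutation test over mice gave p = 0.02857, the smallest that 4 against 4 allows. Of 14214 genes tested, 148 (1.04%) passed an adjusted p under 0.05, with 117 (0.823%) higher and 31 (0.218%) lower in N-LKO. Among the collagens, N-LKO replicate 3 stood apart: it was the highest N-LKO mouse for 13 of the 21 collagens tested, against 5, 3 and 0 for replicates 2, 4 and 1. Calls, and other values that moved most, are given without it below.

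Of the 33 collagen genes, 21 passed the filter on low counts and were tested. 3 rose in N-LKO livers and none fell: Col1a1, an α chain of type I collagen, and Col6a2 and Col6a3, chains of type VI collagen. These 3 of 21 stand beside 0.823% of all genes tested that were called higher. At an unadjusted p under 0.05, 10 collagens were higher and 1 was lower, beside 6.87% and 5.9% of all genes tested. In 6 collagens all N-LKO livers lay above all WT livers and in 1 all lay below, where 4.2% and 3.32% of all genes tested did so. The median log2 fold change of the 21 was 0.28, and 17 of them lay above 0, whereas the median of all genes tested was −0.0033 and 49.3% lay above 0. Without N-LKO replicate 3 none of the 3 passed the threshold, with 8 collagens at an unadjusted p under 0.05, and the same was true on leaving out any single WT mouse, with 11 or 12. DESeq2 called 6 collagens, all higher (1.54% of all genes were called higher by it), while limma-voom called none (0.886% of all genes in either direction), with 9 higher at an unadjusted p under 0.05 (6.82% of all).

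**Figure D1:**
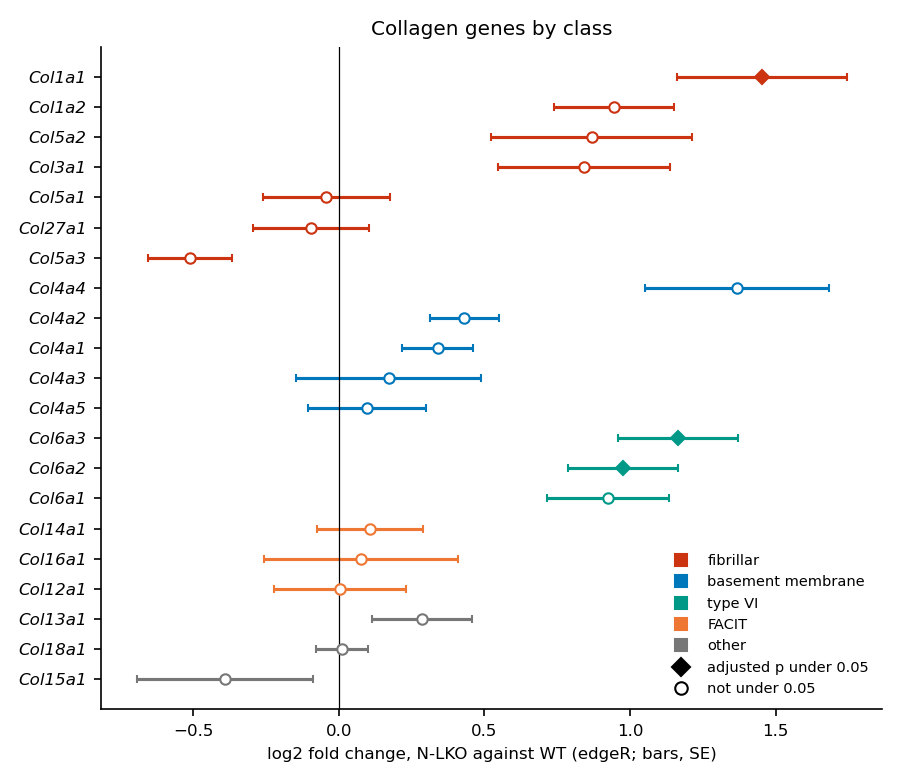
Log2 fold change of N-LKO against WT for the 21 collagen genes tested, by class, with bars for the standard error. Filled diamonds mark Col1a1, Col6a2 and Col6a3, which had an adjusted p under 0.05 in edgeR, and open circles mark the other collagens. The type VI chains lie between 0.92 and 1.16, the FACITs between 0.0038 and 0.11.

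By level per kb of exon, one gene dominated the class in both groups. Col18a1 had 57.83 CPM per kb in WT and 58.21 in N-LKO, and its row alone supplied most of the counts of its class, which held 75.02% of all collagen CPM in WT and 69.34% in N-LKO. Col14a1 (4.20 CPM per kb), Col4a1 (3.80) and Col4a2 (2.44) followed in WT. Fibrillar Col5a3 (1.41 CPM per kb), Col3a1 (1.08), Col1a2 (0.763) and Col1a1 (0.520) lay lower. The type VI chains ran from Col6a1 (0.895) through Col6a3 (0.321) to Col6a2 (0.255). Lengths are exon unions over all annotated transcripts, such as 12.426 kb for Col1a2 and 6.563 kb for Col1a1. Which transcripts these livers made was not measured, so the order of different genes is approximate.

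The order of some genes differed between the groups. Among the genes tested, those that moved by 4 ranks were Col1a1, Col5a3 and Col15a1. In N-LKO, Col1a1 stood at 1.433 CPM per kb and moved from rank 12 to rank 8 of the 33, next to Col1a2 at 1.469. The SD over mice of these levels was 0.136 in WT and 0.648 in N-LKO for Col1a1, and 0.119 and 0.487 for Col1a2, so these 2 neighbors in the N-LKO order did not differ beyond their spread. Col5a3 went the other way, from rank 5 to rank 9, with 0.983 CPM per kb in N-LKO, and Col15a1 from rank 7 to rank 11, with 0.789. Of the rows too low to test, Col28a1 moved furthest, from rank 29 (0.0216 CPM per kb) to rank 18 (0.232).

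**Figure D2:**
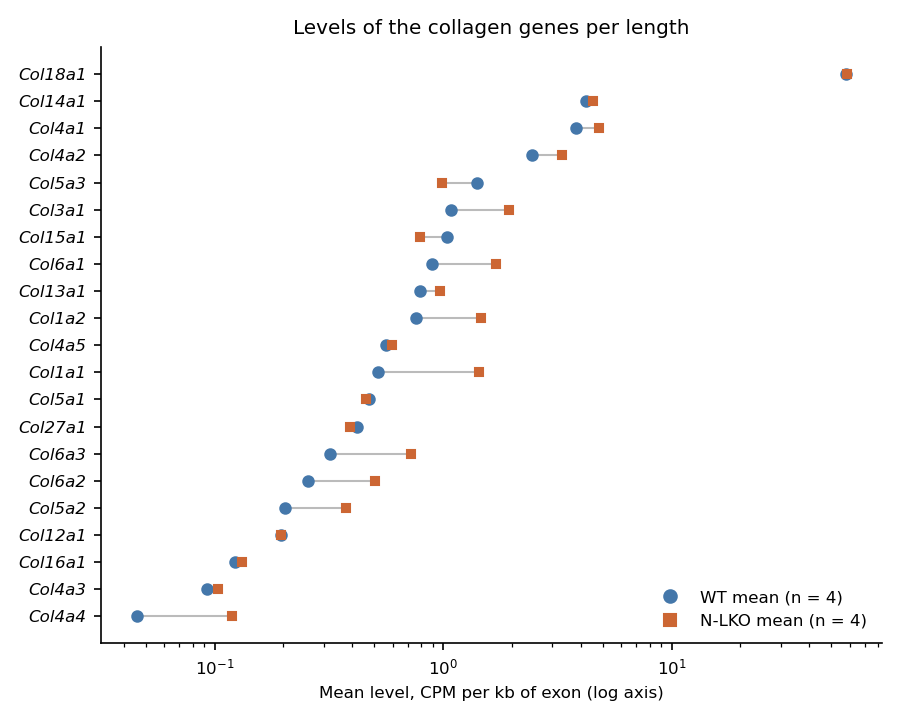
Mean level in CPM per kb of exon (log axis) of the 21 collagen genes tested, ordered by their level in WT, with circles for the WT mean and squares for the N-LKO mean of 4 mice each. Col18a1 stands alone at 57.83 in WT and 58.21 in N-LKO, and the next gene, Col14a1, is at 4.20 in WT.

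Type I collagen, the main fiber of scar, joins Col1a1 and Col1a2 chains in a heterotrimer. Col1a1 (chr11:94936224-94953042, plus strand, GRCm38) had 3.473, 2.939, 2.599 and 4.636 CPM in WT replicates 1 to 4 and 8.108, 6.666, 15.73 and 7.129 CPM in N-LKO replicates 1 to 4. All 4 N-LKO livers were above all 4 WT livers, and N-LKO replicate 3 was far above the other N-LKO mice. The means were 3.41 ± 0.89 and 9.41 ± 4.26 CPM, and the log2 fold change was 1.45 (SE 0.29, adjusted p = 0.04444). Without N-LKO replicate 3 it was 1.09 with an adjusted p of 0.05388 in edgeR.

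Col1a2 (chr6:4504814-4541544, plus strand) did not pass the threshold. It had 9.084, 7.567, 10.78 and 10.49 CPM in the WT livers and 16.78, 15.31, 27.14 and 13.78 CPM in the N-LKO livers. The groups did not overlap here either, and N-LKO replicate 3 was again the highest. The log2 fold change was 0.94 (SE 0.21, adjusted p = 0.06268), or 0.69 without N-LKO replicate 3.

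Col3a1, the chain of type III collagen that forms thin reticular fibers, had 8.549, 7.192, 11.98 and 14.62 CPM in WT and 15.08, 14.52, 32.18 and 14.26 CPM in N-LKO. WT replicate 4 lay above N-LKO replicates 2 and 4, so the groups overlapped, and 1 N-LKO mouse was more than 2 times each of the other 3. The log2 fold change of 0.84 (SE 0.30, adjusted p = 0.2496) went to 0.47 without that mouse. Its exons share 141 bases with Gm47302 on the same strand.

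**Figure D3:**
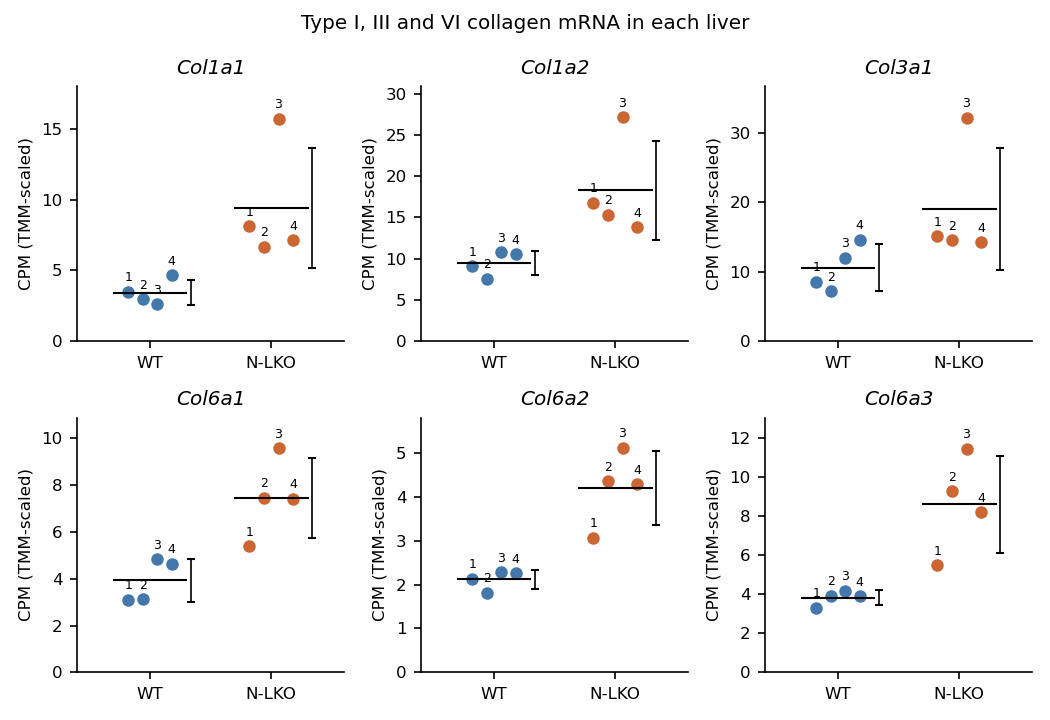
CPM (TMM-scaled) of 6 collagen genes in each liver, with points numbered by replicate, a line for the mean and a bar for the SD (n = 4 per group). For Col1a1, Col1a2, Col6a1, Col6a2 and Col6a3 all N-LKO livers lie above all WT livers, whereas the groups overlap for Col3a1, and N-LKO replicate 3 is the highest liver in every panel.

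Type V collagen sits inside type I fibrils and limits their width, and its 3 chains had different values. Col5a2 averaged 1.96 ± 0.69 CPM in WT and 3.617 ± 1.497 CPM in N-LKO (log2 fold change 0.87, SE 0.35, adjusted p = 0.321), with overlapping groups, and the log2 fold change was 0.62 without N-LKO replicate 3. Col5a1 averaged 4.02 ± 0.70 and 3.92 ± 1.13 CPM (log2 fold change −0.044, SE 0.22, adjusted p = 0.9612). Col5a3 was the only collagen tested whose N-LKO livers all lay below the WT livers.

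The Col5a3 levels were 7.641, 8.505, 10.9 and 11.2 CPM in WT and 6.974, 7.326, 6.37 and 6.111 CPM in N-LKO. The gap between the groups was narrow, from 7.326 to 7.641 CPM. Its log2 fold change was −0.51 (SE 0.14, adjusted p = 0.1556), which did not pass, and with any 1 mouse left out it stayed between −0.61 and −0.43.

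Over the class, 1 of 7 fibrillar collagens tested was called, 4 lay above 0 and 3 below, and the median log2 fold change was 0.84. Col27a1, a fibrillar chain known from cartilage, was at 5.45 ± 0.94 CPM in WT and 5.10 ± 1.39 CPM in N-LKO (log2 fold change −0.095, SE 0.20). The summed CPM of all 9 fibrillar rows was 40.66, 36.33, 49.9 and 53.36 in WT, and 56.3, 56.17, 97.34 and 55.34 in N-LKO. N-LKO replicates 1, 2 and 4 thus stood just above the highest WT sum and replicate 3 far above all. The difference of the mean log2 sums was 0.53, and 0.33 without N-LKO replicate 3.

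Type VI was the class with the most calls, 2 of 3 members tested, and its median log2 fold change was 0.98. Its main form is a heterotrimer of the Col6a1, Col6a2 and Col6a3 chains, and all 3 had N-LKO livers above WT livers without overlap. Col6a3 (chr1:90765923-90843971, minus strand) had 3.313, 3.94, 4.184 and 3.918 CPM in WT and 5.5, 9.306, 11.48 and 8.216 CPM in N-LKO. N-LKO replicate 1 was the lowest of its group and still above every WT mouse. The means were 3.84 ± 0.37 and 8.63 ± 2.49 CPM, with a log2 fold change of 1.16 (SE 0.21, adjusted p = 0.0242).

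Col6a2 (chr10:76595762-76623630, minus strand) had 2.137, 1.814, 2.282 and 2.263 CPM in WT and 3.062, 4.356, 5.109 and 4.278 CPM in N-LKO. The order of the N-LKO mice was close to that for Col6a3, with replicate 1 lowest and replicate 3 highest. Its log2 fold change was 0.98 (SE 0.19, adjusted p = 0.03726). Col6a1 (chr10:76708792-76726168, minus strand), next to Col6a2 on the chromosome, had 3.099, 3.127, 4.818 and 4.636 CPM in WT and 5.387, 7.458, 9.554 and 7.401 CPM in N-LKO. It did not pass the threshold, with a log2 fold change of 0.92 (SE 0.21, adjusted p = 0.07623).

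Without N-LKO replicate 3 the log2 fold changes were 1.00 for Col6a3, 0.87 for Col6a2 and 0.78 for Col6a1, with adjusted p of 0.061, 0.1204 and 0.2033 in edgeR. The summed CPM of the 5 type VI rows was 8.88 to 11.6 in WT and 14.29 to 26.61 in N-LKO, a ratio of means of 2.03. Col6a5 and Col6a6, which encode chains that can take the place of Col6a3, did not pass the filter on low counts: Col6a5 had 9 counts summed over WT and 14 over N-LKO, and Col6a6 had 13 and 14.

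The sequences before the type VI genes are shown because these 3 chains are the class in which every member tested lay apart from WT. They come from RefSeq (GRCm38.p6), run 5′ to 3′ in the direction of the gene and end where the first annotated exon begins. Capitals mark the letters CCGCCC, which is GGGCGG on the other strand.
Col6a1, chr10:76726169-76726294, minus strand: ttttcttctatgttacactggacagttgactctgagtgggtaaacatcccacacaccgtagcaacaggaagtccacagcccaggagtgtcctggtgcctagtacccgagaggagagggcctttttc
Col6a2, chr10:76623631-76623880, minus strand: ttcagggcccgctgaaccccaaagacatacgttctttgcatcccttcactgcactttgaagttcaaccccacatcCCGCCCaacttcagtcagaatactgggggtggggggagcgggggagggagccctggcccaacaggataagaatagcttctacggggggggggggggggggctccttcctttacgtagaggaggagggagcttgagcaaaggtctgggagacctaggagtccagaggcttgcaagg
Col6a3, chr1:90843972-90844221, minus strand: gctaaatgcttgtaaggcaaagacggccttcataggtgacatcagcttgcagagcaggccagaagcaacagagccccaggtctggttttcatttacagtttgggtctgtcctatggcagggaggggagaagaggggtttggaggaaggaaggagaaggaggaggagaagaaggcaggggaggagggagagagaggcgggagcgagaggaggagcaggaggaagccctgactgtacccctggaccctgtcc

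3 short motifs were searched on both strands in the 250 bases upstream of the RefSeq start of 28 matched collagen genes, 1 promoter each, and in 32851 mouse promoters of that length. No motif contains another, and hits of different motifs may share an end letter. GGGCGG, the core of a GC box, was in 17 of the 28 collagen promoters (60.7%) and in 32.7% of all. These sets are unlike, since the 32851 promoters belong to 27025 genes, some with more than 1 promoter. The starts used for Col25a1, Col27a1 and Col1a2 lay 49344, 1408 and 804 bases from the deposited gene start. All of these windows held GGGCGG. Whether collagen genes differ from matched genes was not tested. CCAAT was in 8 (28.6%) against 33.8% of all, and TATAAA was in 4 (14.3%) against 12.4%. Of the type VI genes shown, Col6a2 held 1 GGGCGG, 175 bases upstream, and the windows of Col6a1 and Col6a3 held none of the 3 motifs. A match describes letters only. Col1a1, Col4a3, Col5a2, Col12a1 and Col14a1 were not matched.

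The basement membrane class had 5 members tested and none called, all with a log2 fold change above 0 and a median of 0.34. Col4a1 and Col4a2 form the common type IV trimer, and their genes lie head to head, with 22 bases of exon shared on opposite strands. Col4a1 had 29.92, 26.83, 24.92 and 31.73 CPM in WT and 28.35, 37.95, 41.54 and 35.85 CPM in N-LKO, so that N-LKO replicate 1 fell among the WT livers. Col4a2 had 15.82, 16.26, 13.69 and 18.87 CPM in WT and 18.37, 22.24, 24.68 and 22.0 CPM in N-LKO, and replicate 1 again lay within the WT range. Their log2 fold changes were 0.34 (SE 0.12, adjusted p = 0.2597) and 0.43 (SE 0.12, adjusted p = 0.144), and 0.26 and 0.37 without N-LKO replicate 3.

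Col4a3, Col4a4 and Col4a5 make the trimer best known from the kidney glomerulus. Col4a4 was at 0.534, 0.688, 0.380 and 0.331 CPM in WT and 0.964, 1.06, 1.46 and 1.56 CPM in N-LKO, with 6 to 23 counts per mouse. It was singled out after its values were seen, since its groups did not overlap, and its log2 fold change of 1.37 (SE 0.32, adjusted p = 0.08002) did not pass, with 1.29 without N-LKO replicate 3. Its head-to-head neighbor Col4a3 was at 0.920 ± 0.243 and 1.03 ± 0.34 CPM (log2 fold change 0.17, SE 0.32, and 0.00081 without N-LKO replicate 3), and shares 563 exon bases with C430014B12Rik on the other strand. Col4a5, on chromosome X, was at 3.76 ± 0.83 and 4.00 ± 0.80 CPM (log2 fold change 0.095, SE 0.20). Col4a6 had 3 counts over the WT livers and 12 over the N-LKO livers, and was not tested.

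None of the 3 FACITs tested was called, and their median log2 fold change was 0.075. Col14a1, the most abundant of them per kb, was at 26.13, 23.45, 36.2 and 31.9 CPM in WT and 23.59, 40.72, 35.9 and 26.62 CPM in N-LKO, with full overlap of the groups. Its log2 fold change was 0.11 (SE 0.18), and the range of 2 SE on either side ran from −0.26 to 0.47. Col12a1 was at 2.96 ± 0.68 and 2.98 ± 0.74 CPM with a log2 fold change of 0.0038 (SE 0.23), whose sign turned with library totals (−0.026) and not with RLE size factors. Col16a1 was at 0.827 ± 0.350 and 0.884 ± 0.141 CPM (log2 fold change 0.075, SE 0.33).

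Col18a1, the most abundant collagen mRNA of these livers per kb, had 411.4, 441.7, 378.0 and 393.0 CPM in WT and 373.2, 395.4, 403.9 and 462.5 CPM in N-LKO. The groups overlapped over most of their range. The log2 fold change of 0.0094 (SE 0.089) carried a range of 2 SE on either side from −0.17 to 0.19, so a difference of 1 on the log2 scale, the size seen for the type VI chains, lies outside it. The other multiplexin, Col15a1, had 10.69, 5.691, 5.326 and 4.58 CPM in WT and 6.18, 6.798, 3.583 and 3.463 CPM in N-LKO (log2 fold change −0.39, SE 0.30, adjusted p = 0.6466). WT replicate 1 was the highest by far, and the log2 fold change was −0.047 without it. Col13a1, a transmembrane collagen, was at 3.63 ± 0.66 and 4.44 ± 0.60 CPM (log2 fold change 0.28, SE 0.17, adjusted p = 0.5388).

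Because Col18a1 outweighed the rest, summing all 33 rows hid most of the difference. The sum was 534.2 to 574.0 CPM in WT and 535.7 to 654.2 CPM in N-LKO, a ratio of means of 1.09. Without Col18a1 it was 132.3 to 165.4 CPM in WT and 162.5 to 250.3 CPM in N-LKO, a ratio of means of 1.33, with N-LKO replicate 1 still below the highest WT mouse. Type VI rows held 1.84% of collagen CPM in WT and 3.38% in N-LKO, and fibrillar rows 8.13% and 10.85%.

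The other 12 collagens did not pass the filter on low counts, namely Col4a6, Col6a5, Col6a6, Col8a1, Col8a2, Col10a1, Col11a2, Col20a1, Col23a1, Col24a1, Col25a1 and Col28a1. Col28a1, a collagen known from peripheral nerve, was singled out after its values were seen. It had 1, 2, 3 and 1 counts in WT and 17, 14, 35 and 5 in N-LKO. Every N-LKO liver had more than every WT liver, and replicate 3 had the most. The depth-scaled ratio of the sums, 71 to 7 counts, was 11.1 with an exact 95% interval of 5.12 to 28.7 for counting error only. Fitted without the filter it was called (log2 fold change 3.37, adjusted p = 0.03669 in edgeR), where 0.662% of genes were called higher. DESeq2 called it too (log2 fold change 3.46, adjusted p = 0.001204).

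Another 3 of the low rows did not overlap, so that 3 of the 12 were higher and 1 lower in every N-LKO liver, where 3.13% and 2.03% of the 5428 rows that did not pass the filter were. Col8a2, which encodes a network collagen, had 14 counts over WT and 34 over N-LKO, a ratio of 2.66 (exact interval 1.39 to 5.37). Col25a1 had 12 counts over WT and 1 over N-LKO, a ratio of 0.0913 (0.00214 to 0.617), and Col4a6 gave a ratio of 4.38 (1.18 to 24.2). The remaining 8 overlapped, and all but Col11a2, Col20a1 and Col8a1 had at most 15 counts summed over either group.

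Within a liver, the ratio of 2 chains does not depend on library scaling, and 5 such ratios were computed. The ratio of Col1a1 to Col1a2 CPM was 0.382, 0.388, 0.241 and 0.442 in WT and 0.483, 0.435, 0.580 and 0.517 in N-LKO. WT replicate 4 lay just above N-LKO replicate 2, and the exact two-sided permutation test gave p = 0.05714 (adjusted over the 5 ratios, 0.09524). The ratio of Col3a1 to Col1a1 was 2.462, 2.447, 4.61 and 3.155 in WT and 1.86, 2.178, 2.046 and 2.0 in N-LKO. These groups did not overlap (log2 difference −0.60, exact permutation p = 0.02857, adjusted 0.09524), and N-LKO replicate 3, which had the most of both mRNAs, had a ratio between those of the other N-LKO mice.

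For Col5a1 to Col5a2 the mean ratio was 2.29 ± 0.91 in WT and 1.14 ± 0.22 in N-LKO (exact permutation p = 0.05714, adjusted 0.09524, n = 4). Col4a1 to Col4a2 was 1.76 ± 0.11 and 1.64 ± 0.07 (exact permutation p = 0.2, adjusted 0.25, n = 4), and Col6a1 to Col6a2 was 1.83 ± 0.31 and 1.77 ± 0.07 (exact permutation p = 0.8286, n = 4). No ratio passed an adjusted p under 0.05. The smallest exact permutation p that 4 against 4 mice allow is 0.02857. After the adjustment it passes only where several ratios reach it, so 1 ratio without overlap could not pass by itself. The lack of a pass therefore cannot decide whether a single ratio differed.

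**Figure D4:**
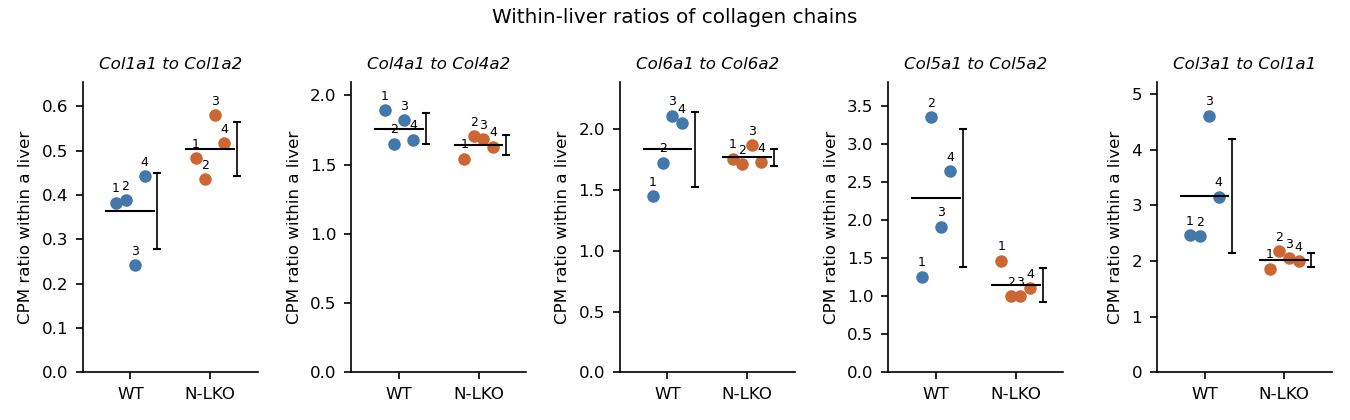
Ratio of the CPM of 2 collagen chains within each liver, with points numbered by replicate, a line for the mean and a bar for the SD (n = 4 per group). Only Col3a1 to Col1a1 has no overlap among the 5 ratios, with 2.447 as the lowest WT value and 2.178 as the highest N-LKO value.

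Making a collagen needs hydroxylation of proline and lysine, folding and export of the long trimer, trimming of its ends and cross-linking outside the cell. Of 39 genes listed for these steps, 32 were tested, 1 was called higher (0.823% of all genes tested were) and none lower, 8 were higher at an unadjusted p under 0.05 (6.87% of all), and the median log2 fold change was 0.098. The called gene was Adamts2, which removes the amino-terminal propeptide of fibrillar procollagens. It had 2.51 ± 0.59 CPM in WT and 6.41 ± 1.73 CPM in N-LKO (log2 fold change 1.34, SE 0.23, adjusted p = 0.02143). With 1 mouse left out it was called in 3 of 8 fits, and without N-LKO replicate 3 it had a log2 fold change of 1.18 and an adjusted p of 0.06539 in edgeR.

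None of the 12 modification genes tested was called. P4hb, the β subunit of prolyl 4-hydroxylase and the most abundant of them by CPM, was at 828.2 ± 19.6 CPM in WT and 900.8 ± 76.0 CPM in N-LKO (log2 fold change 0.12, SE 0.086). The 10 folding and export genes tested included no call. Mia2 and Mia3, which help load procollagen into transport carriers, were at 433.8 and 280.7 CPM in WT and 393.3 and 253.5 CPM in N-LKO. Mia2 was lower in every N-LKO liver than in any WT liver (log2 fold change −0.14, SE 0.080, adjusted p = 0.5075). Of the 5 cross-linking enzymes none was called and 3 were higher at an unadjusted p under 0.05 (6.87% of all genes tested), Lox, Loxl1 and Loxl2. Lox and Loxl1, named after their values were seen, had log2 fold changes of 1.39 (SE 0.33, adjusted p = 0.08714) and 1.21 (SE 0.33, adjusted p = 0.1469). Both were higher in N-LKO without overlap of the groups. Of all genes tested, 4.2% were higher and 3.32% lower without overlap. The most abundant by CPM, Loxl2, was at 3.92 ± 0.34 CPM in WT and 5.14 ± 1.13 CPM in N-LKO (log2 fold change 0.39, SE 0.17, adjusted p = 0.3884).

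Of 10 collagen receptor genes 8 were tested, 1 was called higher (0.823% of all genes tested were) and none lower. At an unadjusted p under 0.05, 3 were higher (6.87% of all) and none lower. These were Mrc2, Ddr1 (log2 fold change 1.11, adjusted p = 0.176) and Itga2 (1.13, adjusted p = 0.1816). Mrc2, an endocytic receptor of mesenchymal cells that takes up collagen for breakdown, rose from 0.500 ± 0.182 CPM in WT to 2.24 ± 0.23 CPM in N-LKO (log2 fold change 2.15, SE 0.28, adjusted p = 0.005551). It was called in all 8 fits with 1 mouse left out. Its WT livers had few counts, at 0.267 to 0.662 CPM. With at least 10 counts required in every mouse, 0 receptor genes were called. Itgb1, the shared β subunit of the collagen-binding integrins, was at 203.6 ± 14.3 CPM and 222.3 ± 3.6 CPM (log2 fold change 0.13, SE 0.072). All 13 listed regulators of collagen genes were tested and none was called, with 4 higher at an unadjusted p under 0.05 (6.87% of all genes tested) and a median log2 fold change of 0.27. Tgfbr1 and Tgfbr2, the receptors of TGF-β, had log2 fold changes of 0.25 (SE 0.078, adjusted p = 0.1958) and 0.31 (SE 0.14, adjusted p = 0.3946).

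Markers of the cell types that could supply collagen mRNA in bulk liver were set beside these values, and their part in the results was not tested. Of all genes tested, 0.823% were called higher and 0.218% lower. At an unadjusted p under 0.05 in edgeR, 6.87% of all genes tested were higher and 5.9% lower. Of 10 portal fibroblast markers 8 were tested and 3 rose: Lum, a small proteoglycan of collagen fibrils (log2 fold change 1.46, adjusted p = 0.002605), Dpt, another fibril-binding protein (2.23, adjusted p = 0.0003201), and Eln, elastin (1.61, adjusted p = 0.01857). The summed CPM of that list was 132.2 to 177.3 in WT and 193.4 to 276.8 in N-LKO, and Gli1 was at 0 in at least 1 mouse. Most of this sum was Dcn, with means of 143.1 CPM in WT and 193.3 CPM in N-LKO. Dcn was not called and its groups overlapped (log2 fold change 0.43, SE 0.13, adjusted p = 0.1846 in edgeR). Of the 8 tested, 7 had a log2 fold change above 0. Lum and Dpt were called in all 8 fits with 1 mouse left out and Eln in 5, not without N-LKO replicate 3 (1.47, adjusted p = 0.06079 in edgeR). Of 10 stellate cell markers all were tested, none rose and 2 fell: Colec10 (log2 fold change −1.31, adjusted p = 0.0008756) and Ecm1 (−0.83, adjusted p = 0.01635), the latter not without N-LKO replicate 3 (−0.84, adjusted p = 0.05139 in edgeR). At an unadjusted p under 0.05, 3 were lower and 2 higher. The lower 3 were Colec10, Ecm1 and Vipr1 (log2 fold change −0.34, adjusted p = 0.2004), each without overlap of the groups. The higher 2 were Pdgfrb (1.04, adjusted p = 0.06876, no overlap of the groups) and Des (0.63, adjusted p = 0.3524). Of all genes tested, 4.2% were higher and 3.32% lower without overlap. The stellate cell markers summed to 197.8 to 294.7 CPM in WT and 177.2 to 241.3 CPM in N-LKO.

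Of 10 cholangiocyte markers 6 were tested and 2 rose (0.823% of all genes tested were called higher). These were Epcam (log2 fold change 1.55, adjusted p = 0.02933) and Spp1 (1.51, adjusted p = 0.03529). All 6 tested had a log2 fold change above 0. The sum of this list was 38.77 to 66.82 CPM in WT and 77.45 to 166.3 CPM in N-LKO. Its highest value was in N-LKO replicate 3, the mouse that was highest for fibrillar and type VI collagens. The largest part of this sum was Spp1, with means of 23.94 CPM in WT and 68.14 CPM in N-LKO. Krt7 and Muc1, not tested, had means of 0.362 and 0.531 CPM in WT and 0.357 and 0.379 CPM in N-LKO. Cldn4, not tested either, was at 0 in at least 1 mouse, with means of 0.063 CPM in WT and 0.243 CPM in N-LKO. Each call held in 2 of 8 fits with 1 mouse left out, and without N-LKO replicate 3 the values were 1.31 for Epcam (adjusted p = 0.07747 in edgeR) and 1.22 for Spp1 (adjusted p = 0.07407). Of 5 mesothelium markers 3 were tested and Wt1, low in WT at 0.500 to 0.962 CPM, rose (log2 fold change 1.75, adjusted p = 0.01289), also without N-LKO replicate 3. The sums were 3.58 to 4.801 CPM in WT and 5.216 to 6.179 CPM in N-LKO, in which Wt1 went from a mean of 0.703 to 2.41 CPM, Msln from 0.810 to 1.15 CPM, and Upk3b, Lrrn4 and Upk1b from 1.41, 0.610 and 0.606 CPM to 1.09, 0.568 and 0.559 CPM.

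None of the markers tested was called among 10 for endothelium (sums of 237.8 to 278.6 CPM in WT and 220.8 to 265.7 CPM in N-LKO), 6 for Kupffer cells (78.93 to 144.1 and 74.62 to 130.2 CPM), 6 for hepatocytes and 2 for smooth muscle and myofibroblasts (3.42 to 4.084 and 3.175 to 5.808 CPM). At an unadjusted p under 0.05, edgeR gave 1 Kupffer cell marker lower (5.9% of all genes tested were) and none in the other 3 lists. The labelled tissue had its defining markers, with hepatocyte genes summing to 67200 to 96390 CPM in WT and 71000 to 85820 CPM in N-LKO, and Alb alone at a mean of 58820 CPM in WT. Acta2, the usual marker of myofibroblasts, was at 0.419 ± 0.115 CPM in WT and 0.599 ± 0.365 CPM in N-LKO and did not pass the filter on low counts.

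**Figure D5:**
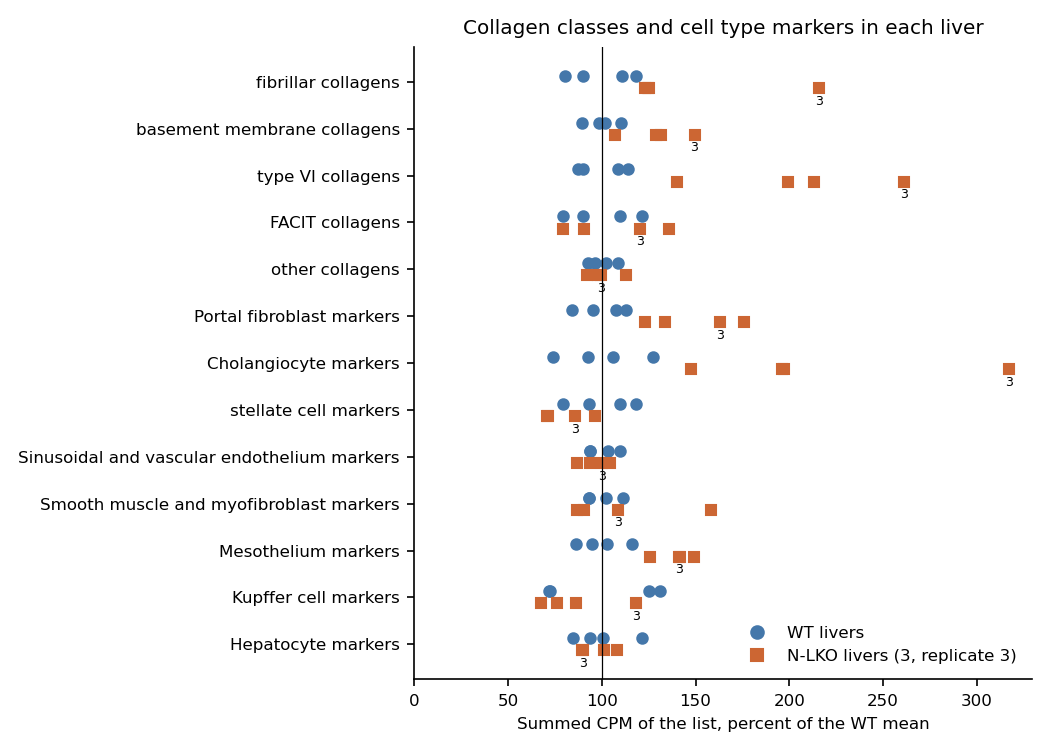
Summed CPM of each collagen class and each cell type marker list per liver, as percent of the WT mean of that list, with circles for WT livers and squares for N-LKO livers, where 3 marks N-LKO replicate 3. Type VI collagens ran from 140.2 to 261.1% in N-LKO, portal fibroblast markers from 122.9 to 175.9% and cholangiocyte markers from 147.6 to 317.0%, while stellate cell markers ran from 70.94 to 96.61%. The largest parts of the portal fibroblast and cholangiocyte sums were Dcn and Spp1.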

How the data were processed

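The values deposited by the authors are expected counts: fractional estimates of reads, 1 value for each gene in each mouse. The study's methods describe removal of rRNA, single-end reads trimmed by quality, alignment with TopHat2 and cuffdiff. The submitters' processing notes name STAR, Partek and mm9 instead, and which of them made the table, and whether strand was used in counting, is not given in the sources used here. Start, end and strand of all 33 collagen rows, and of 19006 of 19642 rows, equal GENCODE M21 (GRCm38) once the deposited end is moved by 1 base, so coordinates are given in GRCm38. Exon lengths are unions over GENCODE M21 transcripts. If strand was not used, reads of genes with exons on both strands cannot be told apart.

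Counts were rounded, filtered with filterByExpr (minimum count 10, minimum total 15), scaled by TMM and then tested in R 4.3.3 by the quasi-likelihood F test of edgeR 4.0.16, which had no covariate beside genotype. Adjusted p is Benjamini-Hochberg over the 14214 genes tested, called under 0.05. The script was tested on simulated data. DESeq2 1.42.0, limma-voom (limma 3.58.1), other scalings and filters, both replicate blocks and each mouse left out were alternatives. Between libraries, chi-square per degree of freedom was 11.8 to 68.6 over 28 pairs, so no 2 libraries agreed within sampling noise. Intervals cover counting error only.

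The members, classes, lists and tests were chosen with earlier results of these data known. Every called collagen is given by mouse, uncalled collagens with a mean of at least 1 CPM by value, and the rest by name. From the other lists, called genes and at most 3 of the most abundant uncalled genes are named, besides markers at 0. Other genes were named after their values were seen (Lox, Loxl1, Ddr1, Itga2, Pdgfrb, Des, Vipr1, Krt7, Muc1, Acta2 and the mesothelium markers). No chance test over the lists was made.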

Additional observations from a re-analysis of the deposited data

Results flagged for a closer look

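In 54 groups of 4 mice, made of the collagens tested, the class sums and Nus1, 1 mouse lay far from the other 3 in 5 groups by Dixon's test at the 95% level, where chance gives about 1 in 20, or 2.7. Col1a1 stood at 15.73 CPM in N-LKO replicate 3, with 6.666 to 8.108 CPM in the other N-LKO mice. Col3a1 stood at 32.18 CPM in the same mouse, with 14.26 to 15.08 CPM in the others. The summed fibrillar collagens stood at 97.34 CPM there, with 55.34 to 56.3 CPM in the others, a sum that holds both of these genes. Col27a1 stood at 6.847 CPM in WT replicate 3, with 4.912 to 5.023 CPM in the other WT mice. Nus1 stood at 81.97 CPM in WT replicate 1, with 89.68 to 90.54 CPM in the other WT mice, far above every N-LKO mouse.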

How the results depend on the processing

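Nus1 kept its direction and call under every alternative. The count of collagens called, 3 in the fit reported, was 3 with RLE size factors, 1 with library totals alone (Col6a3), 4 with no filter, 2 with at least 10 counts in every mouse, 6 with DESeq2 and 0 with limma-voom, with 10 at an unadjusted p under 0.05 in limma-voom. By class, fibrillar calls were 0 with library totals, with at least 10 counts in every mouse and with limma-voom, and 2 with DESeq2. Type VI calls were 1 with library totals and 0 with limma-voom, and calls among the other collagens were 1 with no filter and 1 with DESeq2. Over all genes, 98 were called with at least 10 counts in every mouse and 387 with DESeq2, of which 261 were higher. Genes of collagen making had 2 calls with DESeq2, and receptors 2 with DESeq2 and 0 with at least 10 counts in every mouse, a filter that drops genes low in 1 group. The causes of the other differences were not tested.

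On leaving out 1 mouse at a time, the count of collagens called ran from 0 to 3, fibrillar 0 to 1, type VI 0 to 3, other 0 to 1, making genes 0 to 2, all genes 71 to 173 and those higher 60 to 124. It was 0 without any 1 WT mouse and without N-LKO replicate 3, 3 without N-LKO replicate 1 (Col6a1, Col6a2 and Col6a3), 1 without replicate 2 (Col1a1) and 1 without replicate 4 (Col28a1). The log2 fold changes stayed at 1.09 to 1.64 for Col1a1, 1.00 to 1.33 for Col6a3 and 0.87 to 1.11 for Col6a2.

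Replicate numbers in the titles are not stated to mark pairs. The deviations of same-numbered mice correlated at 0.0625, −0.0853, 0.0396 and 0.0433, and pairing was not tested. With that replicate block 3 collagens were called, Col1a2, Col6a1 and Col6a3, and 0 genes of collagen making. Library numbers gave correlations of −0.0092, 0.166, 0.0648 and 0.0767, and as a block 0 collagens called, 0 fibrillar and 0 type VI, with 11 at an unadjusted p under 0.05 in edgeR.

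The sign turned for genes near 0. Col12a1 had −0.026 with library totals, −0.0060 with no filter, −0.0029 with limma-voom and −0.00045 with the replicate block by title, and Col18a1 −0.023 with library totals. With mice left out, log2 fold changes ran from −0.15 to 0.12 for Col12a1, −0.033 to 0.23 for Col14a1, −0.12 to 0.36 for Col16a1, −0.055 to 0.052 for Col18a1, −0.28 to 0.033 for Col27a1, −0.033 to 0.20 for Col4a5 and −0.23 to 0.11 for Col5a1, and the log2 ratio of Col6a1 to Col6a2 from −0.15 to 0.036. The filter on low counts left out 12 collagens, and for them, Col28a1 apart, no alternative made a call.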
